A study of Homo sapiens with 12 samples.

Results

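Expression of 37 listed genes of the NF-kB pathway and of its cytokine and chemokine targets was followed across 12Z cells with and without a Viperin plasmid and with and without insulin. The list holds 10 chemokines, 10 cytokines, 4 receptor or adhesion genes, 4 inhibitors, 5 NF-kB subunits and 4 other targets, and its members were taken by gene symbol from the 60617 genes of the count tables. A symbol was matched for 36 of the 37. No ID in the count tables is named SOD2 in the gene annotation used here (GENCODE release 44), so SOD2 has no value. Of the 36, 33 reached the mean of 1 count per library that was asked for before testing.

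12Z is an immortalized human endometriotic epithelial cell line. The groups were cells with the pCAG Viperin plasmid and insulin (Viperin + Insulin), cells with that plasmid and vehicle (Viperin), cells with pCAG empty vector and insulin (Insulin), and cells with pCAG empty vector and vehicle (Control), with 3 libraries each. Cells of all groups had been transfected and serum-starved, insulin was given at 100 nM in serum-free medium, and RNA was taken 24 h later. One account of the transfection names pBabe for the empty vector. Viperin, the product of RSAD2, is an antiviral enzyme of the radical SAM family, and each library was made from a whole transfected culture. Per the study's methods, the 3 libraries of a group came from separate experiments, all with this 1 cell line.

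NF-kB is a family of dimeric transcription factors that inhibitor proteins of the IkB family hold in the cytoplasm. Kinases activated by cytokine or pathogen receptors mark the inhibitors for destruction, the dimers enter the nucleus, and they bind kB sites beside genes for chemokines, cytokines, adhesion molecules and the inhibitors themselves. The inhibitors made in that way shut the response off again, and endometriotic lesions are known for high chemokine output from this pathway.

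The libraries held 25979022 to 46889002 read pairs assigned to genes. RSAD2 had 384 to 665 CPM (counts scaled to the same library size, with TMM factors) in the 6 libraries with the Viperin plasmid, against 2.28 to 5.19 CPM in the 6 with empty vector, a ratio of means of 154 (p = 0.00216 by an exact permutation test, two-sided, and 6 against 6 libraries can give none smaller). Of the epithelial markers, KRT18 averaged 1070 TPM (a level per length, scaled to the same sum in every library) and KRT8 748 TPM, while EPCAM averaged 0.717 TPM and CDH1 0.791 TPM, and the fibroblast gene COL3A1 averaged 934 TPM. The label of an epithelial cell is therefore met by the keratins and not by EPCAM or CDH1. Over the libraries the 7 fibroblast markers summed to 3684 to 5022 CPM, more than the 7 epithelial markers with 2438 to 2846 CPM. The epithelial marker MUC1 averaged 11.6 TPM. The 7 immune markers summed to 5.4 to 7.5 CPM in every library, with the T cell gene CD3E and the NK cell gene NKG7 at 3 counts or fewer throughout. Control replicate 1 had 13.9% of its reads mapped to more than 1 place, and the lowest share in any library was 9.44%.

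Levels per length spanned more than 4 orders of magnitude among the members. TNFRSF11B, which encodes osteoprotegerin, a decoy receptor for RANKL, averaged 353 TPM over the group means, and IL6ST, which encodes gp130, the shared signal subunit of the IL-6 family receptors, averaged 276 TPM. These 2 genes made up 59.5% of the summed TPM of the members. The adhesion molecule ICAM1 followed with 67.9 TPM, then the subunit RELA with 61.6 TPM, the monocyte chemokine CCL2 with 49.4 TPM and the inhibitor NFKBIA with 42.2 TPM. In all, 2 members had at least 100 TPM, 12 had 10 to 100 TPM, 12 had 1 to 10 TPM and 10 had under 1 TPM. The order depends on the length used, which sums all annotated exons of a gene. With 15679 bases NFKB1 had 13.0 TPM, and with 2581 bases NFKBIE had 19.7 TPM, although NFKB1 had more counts. The 10 lowest were CXCL3, CXCL5, CCL5, CCL20, IL1A, IL6, IL33, CSF2, CSF3 and TRAF1.

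**Figure D1:**
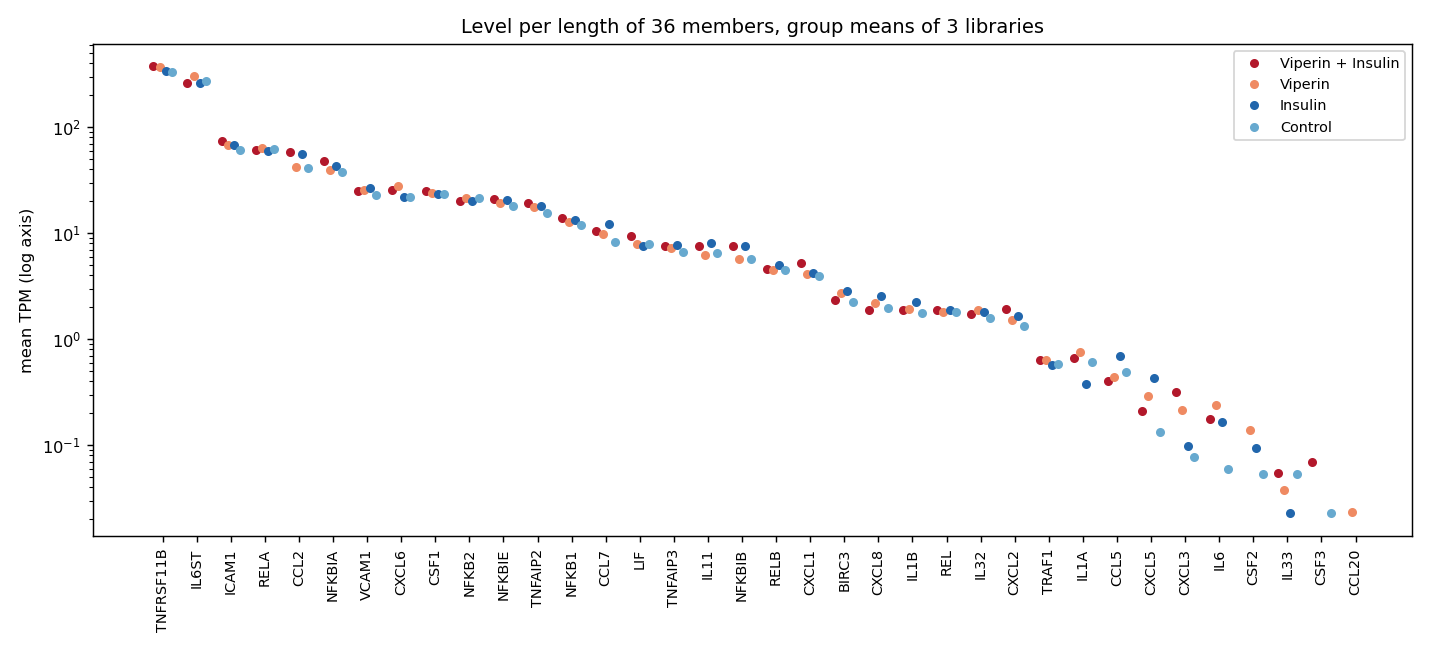
Mean level per length (TPM, log axis) of 36 members in each group of 3 libraries, ordered by the mean over the groups; a group at 0 has no point. TNFRSF11B (353 TPM) and IL6ST (276 TPM) stand above the other members, and the points of the 4 groups lie close together down to about 1 TPM and spread below it, where few counts were available.

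The 3 members under the filter were CCL20, the ligand of the chemokine receptor CCR6, with 1 count in the 12 libraries together, and the colony-stimulating factors CSF2 with 6 counts in 4 libraries and CSF3 with 5 counts in 3 libraries. No library held more than 3 counts of any of them. The level that a count of 0 still allows, 3 counts, corresponds to 0.064 CPM in the deepest library and 0.115 CPM in the shallowest, for counting error only. Differences of CCL20, CSF2 and CSF3 between groups under such levels were not detectable at this depth. IL6, a major product of NF-kB in other cells, had 6, 4 and 13 counts in Viperin + Insulin libraries, 3, 13 and 9 in Viperin libraries, 10, 9 and 1 in Insulin libraries and 2, 1 and 3 in Control libraries. IL33, an alarmin, had 0 to 2 counts in every library.

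The stretches before the gene starts are shown for 6 CXC chemokines that lie in 1 cluster on chromosome 4. They are also shown for the inhibitors and subunits called for insulin below (NFKBIA, NFKBIB, NFKB1 and NFKB2), and not for the other inhibitors and subunits. The members were listed as parts or targets of NF-kB, and the stretches are shown as sequence only, since binding was not measured. Sequences are RefSeq, build GRCh38.p14, written 5′ to 3′ on the strand of the gene, with capitals for matches to GGAANNNCC, a kB-type motif searched on both strands. The first 6 run from 100 bases before the start of the gene, in their order along the chromosome. They are chr4:73740469-73740518 (plus strand), chr4:73836578-73836637 (plus), chr4:73869293-73869352 (plus), chr4:73998718-73998777 (minus), chr4:74038730-74038789 (minus) and chr4:74099236-74099295 (minus).
CXCL8: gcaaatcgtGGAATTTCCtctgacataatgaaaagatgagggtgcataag
CXCL6: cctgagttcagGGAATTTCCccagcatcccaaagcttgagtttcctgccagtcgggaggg
CXCL1: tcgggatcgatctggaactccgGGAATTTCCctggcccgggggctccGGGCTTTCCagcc
CXCL5: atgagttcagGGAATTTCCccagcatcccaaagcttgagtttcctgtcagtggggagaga
CXCL3: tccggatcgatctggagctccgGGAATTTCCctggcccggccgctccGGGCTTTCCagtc
CXCL2: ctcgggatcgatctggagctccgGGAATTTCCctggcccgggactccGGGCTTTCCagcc

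All 6 carried the same 9 letters, GGAATTTCC, which is its own match on both strands, and the first of the 9 lay between 91 and 77 bases before the start. CXCL1, CXCL2 and CXCL3 shared a further GGGCTTTCC, at bases -53 to -45 in each. The same GGAATTTCC also stood before NFKB1 and NFKBIB, each of which has another start with no match. NFKBIA is shown over its whole 250 bases (chr14:35404750-35404999, minus strand), NFKBIB from base -100 to -18 (chr19:38899869-38899951, plus), NFKB1 from -100 to -31 (chr4:102501259-102501328, plus) and NFKB2 over 30 bases (chr10:102394461-102394490, plus), where GGGAATTCCC holds 2 overlapping matches on opposite strands. NFKBIB has a further match at bases -10 to -2, and NFKB2 has 3 further matches, before 2 of its 3 starts, which are not printed.
NFKBIA: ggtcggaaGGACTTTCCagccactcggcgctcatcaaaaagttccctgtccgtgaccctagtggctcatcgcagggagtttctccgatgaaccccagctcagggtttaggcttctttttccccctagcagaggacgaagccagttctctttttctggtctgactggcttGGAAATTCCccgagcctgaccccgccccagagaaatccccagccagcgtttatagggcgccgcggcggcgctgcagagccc
NFKBIB: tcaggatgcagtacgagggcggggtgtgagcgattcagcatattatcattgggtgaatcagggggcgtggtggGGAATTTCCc
NFKB1: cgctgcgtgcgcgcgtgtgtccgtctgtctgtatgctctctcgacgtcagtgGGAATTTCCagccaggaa
NFKB2: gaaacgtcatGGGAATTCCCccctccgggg

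Of the 29 members with a start in the RefSeq table, 20 (69.0%) held at least 1 match in the 250 bases before a start, against 20.2% of the 27305 genes in the table. By start, 21 of 42 starts of members held a match, against 17.1% of the 35116 starts in the table. SOD2 is among these 29, since its starts are in that table. Matches stood before 7 of 8 chemokines, 3 of 3 inhibitors, 3 of 4 subunits, 2 of 3 receptor or adhesion genes, 2 of 4 other targets and 3 of 7 cytokines. Since the list was made up of known NF-kB genes, these shares describe it, and a match is a run of letters and not a shown binding site. CCL2, CCL5, LIF, NFKBIE, RELB, CSF1, CSF3 and TNFRSF11B had no start in the table. RELA was the subunit that had starts and no match, and the cytokine IL11 had a start and no match in its 250 bases.

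**Figure D2:**
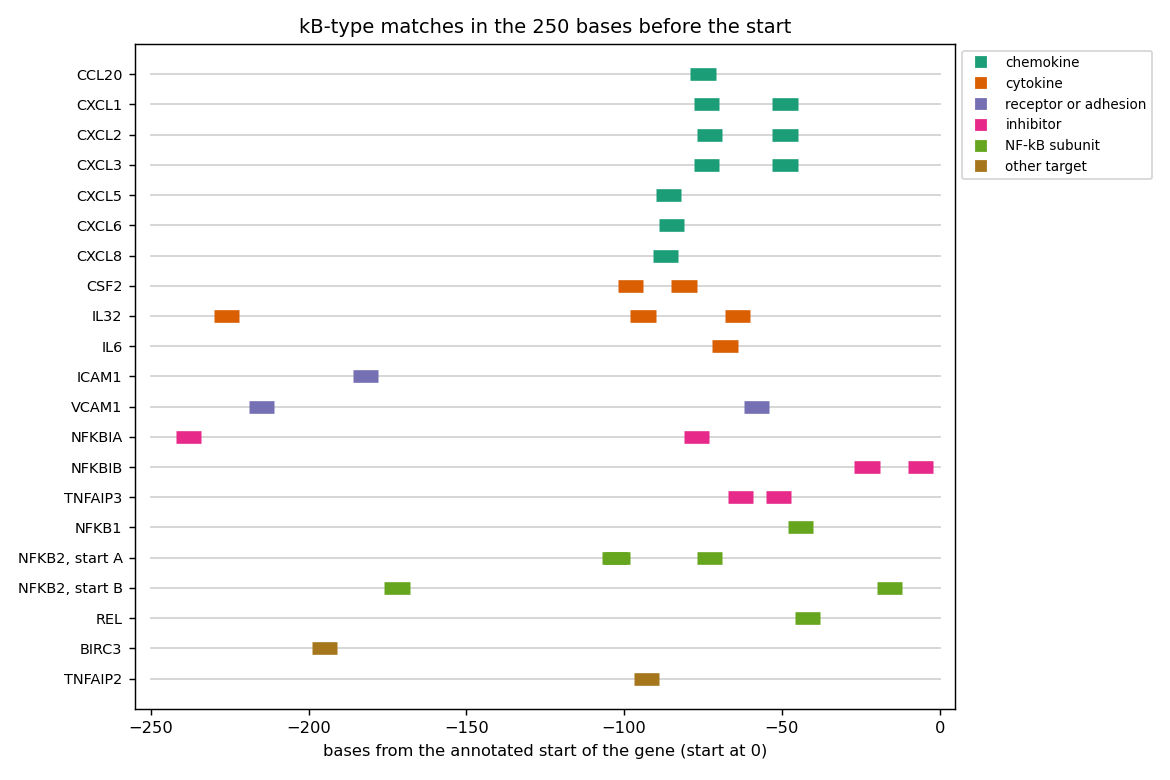
Position of each match to the kB-type motif (coloured blocks) in the 250 bases before the annotated start (x axis, bases, start at 0) for the 20 members with a match, 1 line per start that holds a match and coloured by role; for NFKB2 these are 2 of its 3 starts. The first matches of the 6 CXC chemokines lie together, between 91 and 69 bases before the start.

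Most calls among the members came with insulin. Averaged over both plasmids, 5 members rose and 1 fell with insulin among the 33 tested (edgeR quasi-likelihood test, Benjamini-Hochberg adjusted p under 0.05), which is 18.2% of the members, against 11.7% of all 23041 genes tested (5.76% higher and 5.97% lower). The chemokine CCL2, the IkB inhibitors NFKBIA and NFKBIB, the cytokine IL11 and the subunit NFKB1 were higher, and the subunit NFKB2 was lower. None of the 6 passed 0.001, the threshold used in the study, which 3.92% of all genes did. CCL2 came closest and passed 0.001 in 13 of 21 alternative fits, DESeq2 (adjusted p = 9.63e-09) and limma-voom (3.43e-06) among them, and NFKBIA did so in 3 of 21. The members' median log2 fold change was 0.10, beside -0.00 for all genes, and 23 of the 33 were above 0 (69.7%, beside 49.4% of all genes). The members were chosen with earlier results of these data known, so such shares of members beside all genes describe the list only.

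CCL2 (ENSG00000108691.9, chr17:34255274-34257208, GRCh38) encodes the chemokine that draws monocytes through the receptor CCR2. It had 27.7, 25.0 and 29.2 CPM in Viperin + Insulin libraries, against 19.8, 17.4 and 23.3 CPM in Viperin libraries. With empty vector it had 24.8, 29.5 and 28.0 CPM in Insulin libraries, against 22.1, 21.8 and 18.1 CPM in Control libraries. All 6 insulin libraries, 24.8 to 29.5 CPM, lay above all 6 vehicle libraries, 17.4 to 23.3 CPM. CCL2 rose 1.35-fold with insulin (log2 0.43 ± 0.07 SE, adjusted p = 0.00106 by edgeR).

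CCL2 was also the member that passed with each plasmid alone. Among the 33, it was the 1 called for Insulin against Control (5.49% of all genes called), with log2 0.41 ± 0.10 SE and adjusted p = 0.0339 by edgeR. For Viperin + Insulin against Viperin (4.56% of all genes called), CCL2 and NFKBIA were the 2 called, and CCL2 rose by log2 0.45 ± 0.10 SE with adjusted p = 0.0196 by edgeR. The difference between its insulin responses with the Viperin plasmid and with empty vector was 0.04 on the log2 scale, with a 95% interval of -0.25 to 0.33. Both single-plasmid calls depended on the fit. With empty vector the adjusted p of CCL2 ran from 3.20e-08 to 0.128 over 22 alternatives, DESeq2 giving 0.000861, and with the Viperin plasmid from 5.77e-10 to 0.108, DESeq2 giving 0.000190. With empty vector the call was lost without Control replicate 2 or 3, Insulin replicate 2 or 3, or Viperin replicate 1, at log2 values of 0.32 to 0.45. With the Viperin plasmid it was lost without Viperin replicate 1 or Viperin + Insulin replicate 1 or 3, at log2 values of 0.40 to 0.43. With the replicate number as a block both were lost (adjusted p = 0.0754 with empty vector and 0.0566 with the Viperin plasmid).

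NFKBIA (ENSG00000100906.10, chr14:35401079-35404749) encodes IkB-alpha, the inhibitor that NF-kB itself induces and whose start region is printed above with 2 matches. It had 40.9, 37.1 and 39.4 CPM in Viperin + Insulin libraries, against 36.4, 28.8 and 34.6 CPM in Viperin libraries. These 2 groups did not overlap, as was so for 21.1% of all genes in either direction. With empty vector NFKBIA had 33.6, 38.9 and 39.7 CPM in Insulin libraries, against 34.0, 33.2 and 33.7 CPM in Control libraries. Insulin replicate 1 fell among the Control values. NFKBIA rose 1.14-fold with insulin averaged over both plasmids (log2 0.19 ± 0.05 SE, adjusted p = 0.0061 by edgeR), and by log2 0.24 ± 0.07 SE with the Viperin plasmid (adjusted p = 0.0370). With empty vector its value was log2 0.15 ± 0.07 SE, which did not pass (adjusted p = 0.235). The call with the Viperin plasmid was lost without Control replicate 2 or 3, Viperin replicate 2 or 3, or Viperin + Insulin replicate 1 or 3, where the adjusted p reached 0.273.

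NFKBIB (ENSG00000104825.17, chr19:38899700-38908893) encodes IkB-beta, a slower inhibitor of the same family. It had 4.31, 3.64 and 4.78 CPM in Viperin + Insulin libraries, against 3.18, 3.31 and 3.40 CPM in Viperin libraries. It had 4.22, 4.99 and 4.20 CPM in Insulin libraries, against 3.52, 3.40 and 3.56 CPM in Control libraries. Every insulin library was above every vehicle library, with the closest pair at 3.64 CPM with insulin and 3.56 CPM with vehicle. NFKBIB rose 1.29-fold (log2 0.36 ± 0.09 SE, adjusted p = 0.00404 by edgeR), while neither plasmid alone passed, at adjusted p = 0.0882 with Viperin and 0.118 with empty vector.

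The other 2 inhibitors had smaller values on the same side of 0. NFKBIE, which encodes IkB-epsilon, had a log2 fold change of 0.11 ± 0.06 SE (adjusted p = 0.245 by edgeR) at 12.1 to 14.7 CPM with insulin and 11.5 to 13.5 CPM with vehicle. TNFAIP3, which encodes the deubiquitinase A20, had 0.10 ± 0.06 SE (adjusted p = 0.350 by edgeR) at 10.9 to 14.9 CPM with insulin and 10.2 to 12.4 CPM with vehicle. Of the 4 inhibitors, 2 passed the test, where 11.7% of all genes did.

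The 2 subunits that are made as precursors moved in opposite directions, both by little. NFKB1 (ENSG00000109320.13, chr4:102501330-102617302), the gene of p105 and p50, had 51.9, 53.4 and 53.4 CPM in Viperin + Insulin libraries, against 50.7, 47.7 and 50.4 CPM in Viperin libraries. It had 53.7, 53.8 and 51.5 CPM in Insulin libraries, against 49.2, 48.5 and 47.9 CPM in Control libraries. The 6 insulin libraries were again all above the 6 vehicle libraries, and NFKB1 rose 1.08-fold (log2 0.11 ± 0.03 SE, adjusted p = 0.0163 by edgeR). Without Viperin replicate 2, its lowest library, the adjusted p was 0.0666.

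NFKB2 (ENSG00000077150.20, chr10:102394110-102402524), the gene of p100 and p52 of the noncanonical pathway, had 27.8, 27.7 and 26.4 CPM in Viperin + Insulin libraries, against 31.0, 28.3 and 29.8 CPM in Viperin libraries. It had 29.5, 29.8 and 25.6 CPM in Insulin libraries, against 32.5, 31.2 and 30.8 CPM in Control libraries. Within each plasmid the insulin libraries were below the vehicle libraries, although Insulin replicates 1 and 2 exceeded Viperin replicate 2. Of all genes, 20.2% were separated in either direction with empty vector and 21.1% with the Viperin plasmid. NFKB2 fell with insulin (log2 -0.14 ± 0.04 SE, adjusted p = 0.0169 by edgeR), a call that was lost without Insulin replicate 3, Viperin replicate 1 or Viperin + Insulin replicate 3 (adjusted p up to 0.128). RELA, the transactivating p65 subunit, had 77.6 to 84.6 CPM with insulin and 83.4 to 91.5 CPM with vehicle (log2 -0.08 ± 0.03 SE, adjusted p = 0.0602 by edgeR), and REL and RELB had log2 values of 0.01 ± 0.07 SE and 0.05 ± 0.10 SE. In 4 of 21 other fits RELA was called for insulin (adjusted p = 0.03225 to 0.04995 by edgeR).

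IL11 (ENSG00000095752.7, chr19:55364382-55370463) encodes a cytokine that signals through gp130 and is known from decidualizing endometrium. It had 4.89, 4.37 and 5.35 CPM in Viperin + Insulin libraries, against 3.98, 4.04 and 4.32 CPM in Viperin libraries. It had 5.17, 5.62 and 5.50 CPM in Insulin libraries, against 4.44, 5.08 and 3.95 CPM in Control libraries. Within each plasmid the groups did not overlap, beside 20.2% of all genes with empty vector and 21.1% with the Viperin plasmid. IL11 rose 1.20-fold (log2 0.26 ± 0.09 SE, adjusted p = 0.0281 by edgeR), and the call was lost in 7 of 12 fits that left out 1 library (Control 3, Insulin 2 or 3, Viperin 1 or 2, Viperin + Insulin 1 or 3), where the adjusted p reached 0.114.

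**Figure D3:**
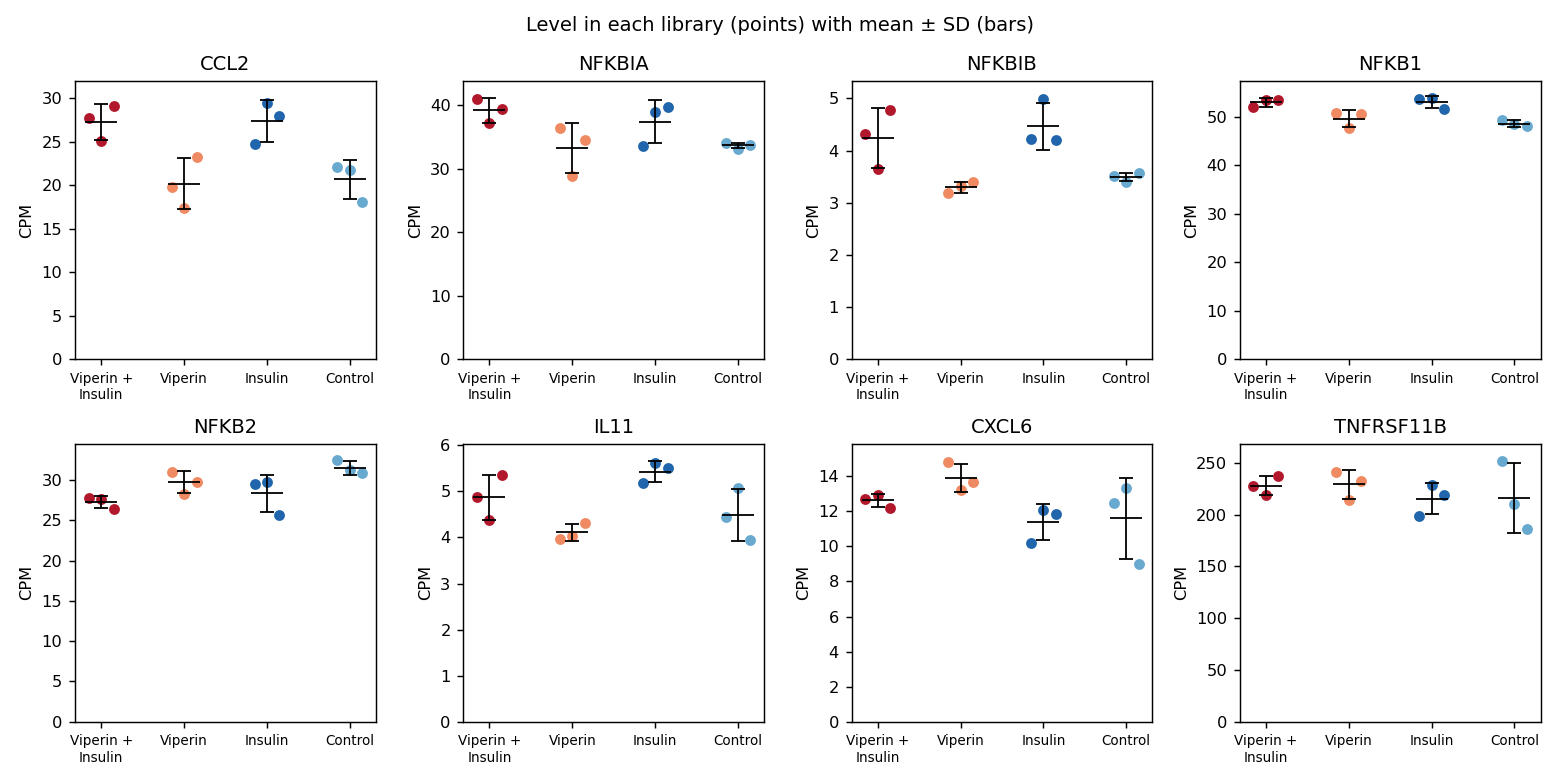
CPM in each library (points) with the group mean and SD (bars, n = 3) for the 7 members called in any comparison and for TNFRSF11B, the member with the highest level; axes start at 0. For CCL2, NFKBIB and NFKB1 all 6 insulin libraries lie above all 6 vehicle libraries, NFKB2 is lower with insulin within each plasmid, and TNFRSF11B shows no call.

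Counted by library, CCL2, NFKBIB and NFKB1 were the 3 of 33 members whose 6 insulin libraries lay all above the 6 vehicle libraries, and no member lay all below. Of all genes tested, 4.11% were separated in that way in either direction, and 2.12% upward. Other values moved with insulin in the same libraries. The mitochondrially encoded genes held 4.28% to 4.52% of counts in Viperin + Insulin libraries and 4.81% to 5.34% in Viperin libraries, and 5.14% to 5.19% in Insulin libraries and 5.59% to 6.64% in Control libraries. The summed level of the 7 epithelial markers was 2570 to 2681 CPM in Viperin + Insulin libraries and 2438 to 2529 CPM in Viperin libraries. With empty vector the sum was 2671 to 2846 CPM in Insulin libraries and 2574 to 2643 CPM in Control libraries. Singly the 7 did not move together. Averaged over both plasmids, 1 was called higher with insulin, 1 lower and 5 not at all (11.7% of all genes called). MUC1 had lower means with insulin, 6.80 against 7.67 CPM with the Viperin plasmid and 5.89 against 7.62 CPM with empty vector. The part of the mitochondrial and marker shifts in the members' values was not tested. With the mitochondrially encoded genes and RSAD2 left out of the library sizes, all 6 calls remained and IL6ST joined them. Of all genes, 2731 were called in that fit, beside 2704 in the chosen fit. Fewer cells of a type and less RNA per cell cannot be told apart in bulk libraries such as these.

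IL6ST, the member with the second highest level, was called in some fits and not in others. It had 744, 765 and 801 CPM in Viperin + Insulin libraries, against 963, 896 and 869 CPM in Viperin libraries. These groups did not overlap, as was so for 21.1% of all genes in either direction. With empty vector IL6ST had 761, 822 and 833 CPM in Insulin libraries, against 956, 799 and 816 CPM in Control libraries. Control replicate 1 stood well above the other 2. The log2 fold change was -0.16 ± 0.05 SE for insulin averaged over both plasmids (adjusted p = 0.0580 by edgeR) and -0.24 ± 0.07 SE with the Viperin plasmid (adjusted p = 0.0938).

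Neither value of IL6ST passed in the chosen fit, but the averaged one passed in 12 of 21 other fits, with log2 values of -0.19 to -0.12, and the one with the Viperin plasmid passed in 9 of 22, with -0.27 to -0.24. DESeq2, limma-voom and edgeR with its own low-count filter were among the fits that called both. Without Control replicate 1, the library with the highest share of reads mapped to more than 1 place, IL6ST was also called for Viperin against Control (log2 0.17 ± 0.04 SE, adjusted p = 0.00192) and for the difference of the insulin responses (log2 -0.24 ± 0.05 SE, adjusted p = 0.0335), both by edgeR. The part of that library's mapping in the result was not tested. IL6ST shares 2.10% of its 50-base stretches with a pseudogene and 1 other gene.

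ICAM1, the adhesion molecule with the third highest level, had 59.6, 61.9 and 63.4 CPM in Viperin + Insulin libraries and 62.6, 53.1 and 58.9 CPM in Viperin libraries. It had 54.9, 64.5 and 59.1 CPM in Insulin libraries and 61.3, 50.2 and 53.2 CPM in Control libraries, with a log2 value of 0.10 ± 0.05 SE for insulin (adjusted p = 0.315 by edgeR). Without Control replicate 1, ICAM1 was called for insulin (log2 0.14, adjusted p = 0.00931) and for Insulin against Control (log2 0.20, adjusted p = 0.0294).

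Apart from CCL2, no chemokine passed for insulin in the chosen fit, and the intervals of CCL5, CCL7, CXCL2, CXCL3 and CXCL5 reached past 1.5-fold. CCL7, a monocyte chemokine that also binds CCR2, had 2.05, 1.91 and 2.61 CPM in Viperin + Insulin libraries, against 1.71, 1.60 and 2.90 CPM in Viperin libraries. It had 1.81, 3.49 and 2.69 CPM in Insulin libraries, against 1.70, 1.98 and 1.91 CPM in Control libraries. CCL7 had a log2 fold change of 0.31 ± 0.15 SE with insulin (adjusted p = 0.195 by edgeR), with overlapping groups. It was called for insulin in 3 of 21 other fits (adjusted p = 0.0207 to 0.0308 by edgeR). The neutrophil chemokines CXCL1, CXCL2 and CXCL8 had 1.26 to 1.91, 0.329 to 0.788 and 1.00 to 2.02 CPM in insulin libraries, against 0.987 to 1.78, 0.248 to 0.696 and 0.688 to 1.80 CPM in vehicle libraries. None of these 3 was called in any comparison. CXCL1, CXCL2 and CXCL3 share 4.57%, 13.4% and 6.01% of their 50-base stretches with one another. REL shares 32.9% and CCL5 15.6% with other genes. STAR's gene counts leave out reads with several equally good places, so the levels of these genes are uncertain and may be too low. Of the 9 chemokines tested, 1 passed for insulin and 8 had a value above 0, with a median log2 of 0.26. Of all genes 11.7% passed and 49.4% were above 0, with a median of -0.00.

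The Viperin plasmid alone called no member. For Viperin against Control, 0 of 33 members passed by edgeR (2.29% of all genes called). By DESeq2 and limma-voom 0 passed as well, with 457 and 463 of all genes called. Of the members, 2 had an unadjusted p under 0.05 by edgeR, beside 13.5% of all genes. These 2 were IL6 and CXCL6, both higher. The largest log2 value, 1.29 ± 0.82 SE for IL6, rests on 3, 13 and 9 counts in Viperin libraries, against 2, 1 and 3 in Control libraries, with adjusted p = 0.223 by edgeR. The members' median log2 was 0.04, beside 0.00 for all genes.

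For Viperin + Insulin against Insulin, 0 of 33 members passed by edgeR (3.08% of all genes called). By DESeq2 and limma-voom 0 passed as well, with 579 and 719 of all genes called. An unadjusted p under 0.05 was reached by 3 members, beside 14.2% of all genes. LIF, an IL-6 family cytokine needed for implantation in mice, was the 1 of these with higher values, at 8.35, 9.32 and 8.54 CPM in Viperin + Insulin libraries, against 6.90, 7.82 and 7.68 CPM in Insulin libraries (log2 0.22 ± 0.10 SE, adjusted p = 0.290). VCAM1 and BIRC3 had lower values.

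Averaged over vehicle and insulin, 1 of 33 members passed for the Viperin plasmid (7.96% of all genes called). It was CXCL6 (ENSG00000124875.10, chr4:73836640-73849064), a neutrophil chemokine of the cluster printed above. CXCL6 had 12.7, 13.0 and 12.2 CPM in Viperin + Insulin libraries, against 10.2, 12.1 and 11.9 CPM in Insulin libraries. All 3 were higher, and 21.7% of all genes were separated there in either direction. With vehicle CXCL6 had 14.8, 13.2 and 13.7 CPM in Viperin libraries, against 12.5, 13.4 and 9.0 CPM in Control libraries. Those groups overlapped at Control replicate 2. CXCL6 rose 1.16-fold with the plasmid (log2 0.21 ± 0.07 SE, adjusted p = 0.0437 by edgeR).

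The CXCL6 call was lost in 8 of 12 fits that left out 1 library (Control 3, Insulin 1 or 3, Viperin 1 or 3, Viperin + Insulin 1, 2 or 3). Control replicate 3 held its lowest value, and without that library its log2 value was 0.13, with adjusted p = 0.234 by edgeR. It was also lost with DESeq2 (adjusted p = 0.0948) and with edgeR's own low-count filter (0.0613). The 7 fibroblast markers moved with the same groups, summing to 4786 to 5022 CPM with the Viperin plasmid and 3684 to 4469 CPM with empty vector, and 6 of the 7 were called higher. Their part in the result was not tested. CXCL6 shares 2.31% of its 50-base stretches with the pseudogene PPBPP1, whose exons overlap it on the same strand. No member's 6 libraries with the Viperin plasmid lay all above or all below the 6 with empty vector, which 2.06% of all genes did.

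**Figure D4:**
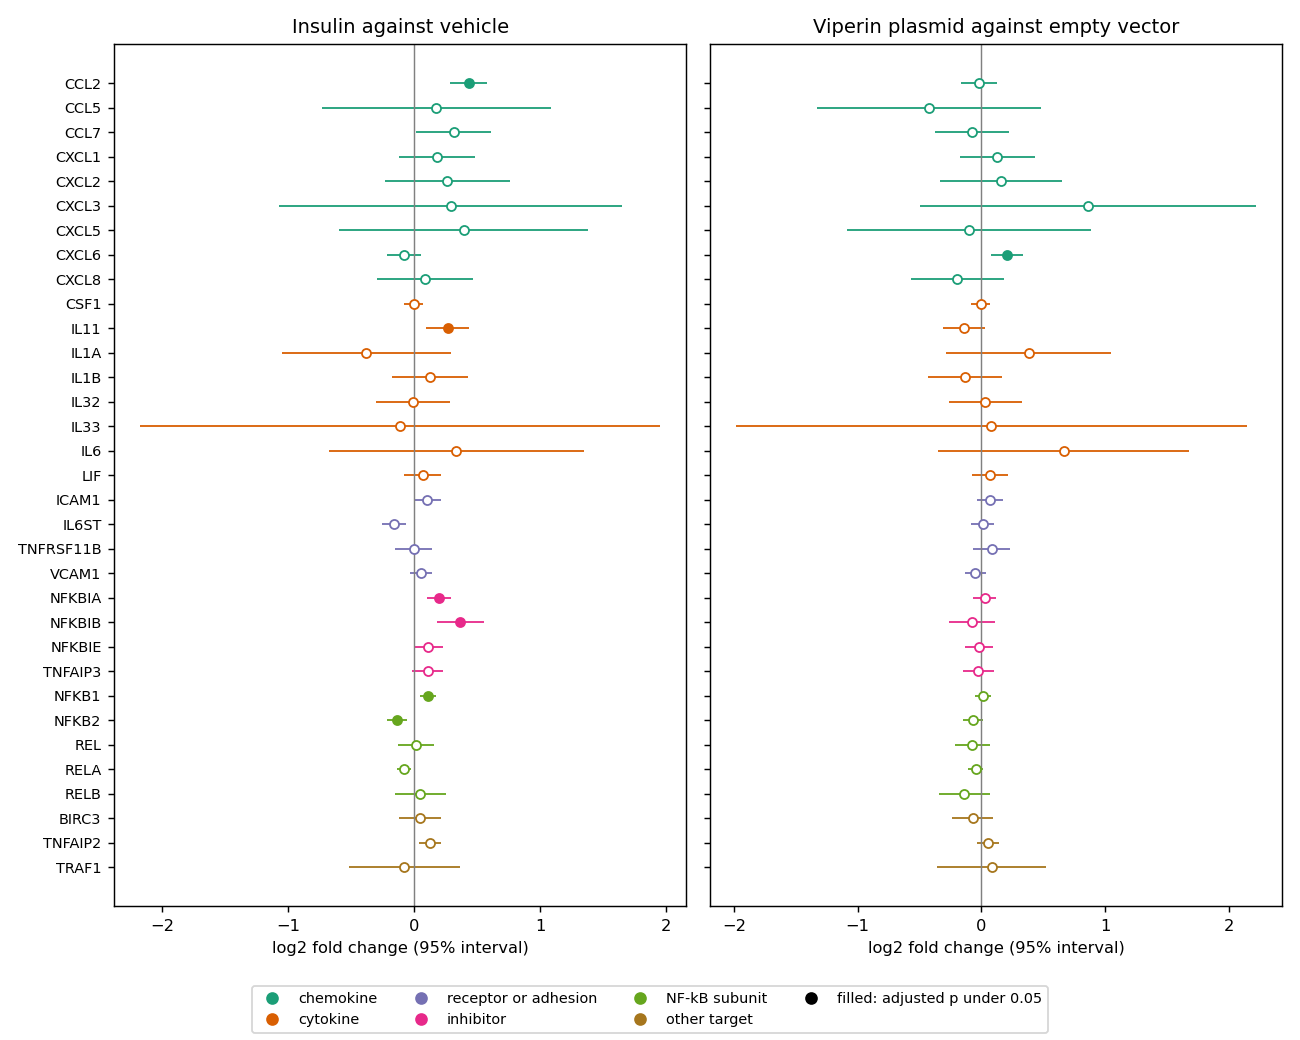
Log2 fold change with 95% interval (x axis) of the 33 members tested, coloured by role, for insulin against vehicle (left) and for the Viperin plasmid against empty vector (right); filled points have an adjusted p under 0.05 by edgeR. On the left 6 points are filled, CCL2 farthest from 0 among them at 0.43, and on the right 1, CXCL6 at 0.21.

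Whether the Viperin plasmid changed the insulin response was tested as the difference of the 2 responses. No member passed by edgeR (0 of 33), by DESeq2 or by limma-voom. Of the 23041 genes, 0 passed by edgeR (0% called), and DESeq2 and limma-voom also called 0. An unadjusted p under 0.05 was reached by 3 members, all with lower values in the Viperin setting, beside 5.63% of all genes. These were BIRC3, VCAM1 and CXCL5, named after their values were seen. For 18 of the 33 members the 95% interval lay within a 1.5-fold difference either way, CCL2, NFKBIA, NFKBIB and NFKB1 among them, and the other 15 were not resolved to that size.

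BIRC3, which encodes the ubiquitin ligase cIAP2, had 4.36, 4.01 and 4.44 CPM in Viperin + Insulin libraries, against 5.19, 4.71 and 5.17 CPM in Viperin libraries, and all 3 were lower with insulin. With empty vector it had 5.50, 5.26 and 5.59 CPM in Insulin libraries, against 4.99, 3.56 and 4.58 CPM in Control libraries. There all 3 were higher with insulin. Of all genes, 21.1% were separated in either direction with the Viperin plasmid and 20.2% with empty vector. The difference of the insulin responses of BIRC3 was -0.55 ± 0.17 SE on the log2 scale, with an interval of -0.88 to -0.21, and did not pass over all genes (adjusted p = 0.547 by edgeR).

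VCAM1, an adhesion molecule for leukocytes, had 34.1, 35.9 and 38.7 CPM in Viperin + Insulin libraries, against 40.3, 36.5 and 37.7 CPM in Viperin libraries. It had 36.8, 44 and 42.1 CPM in Insulin libraries, against 34.9, 39.5 and 34.4 CPM in Control libraries, so that both pairs overlapped. Its difference was -0.25 ± 0.09 SE on the log2 scale (adjusted p = 0.654 by edgeR). CXCL5 had 7, 4 and 3 counts in Viperin + Insulin libraries, against 6, 6 and 6 in Viperin libraries, and 6, 10 and 13 counts in Insulin libraries, against 2, 0 and 6 in Control libraries.

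**Figure D5:**
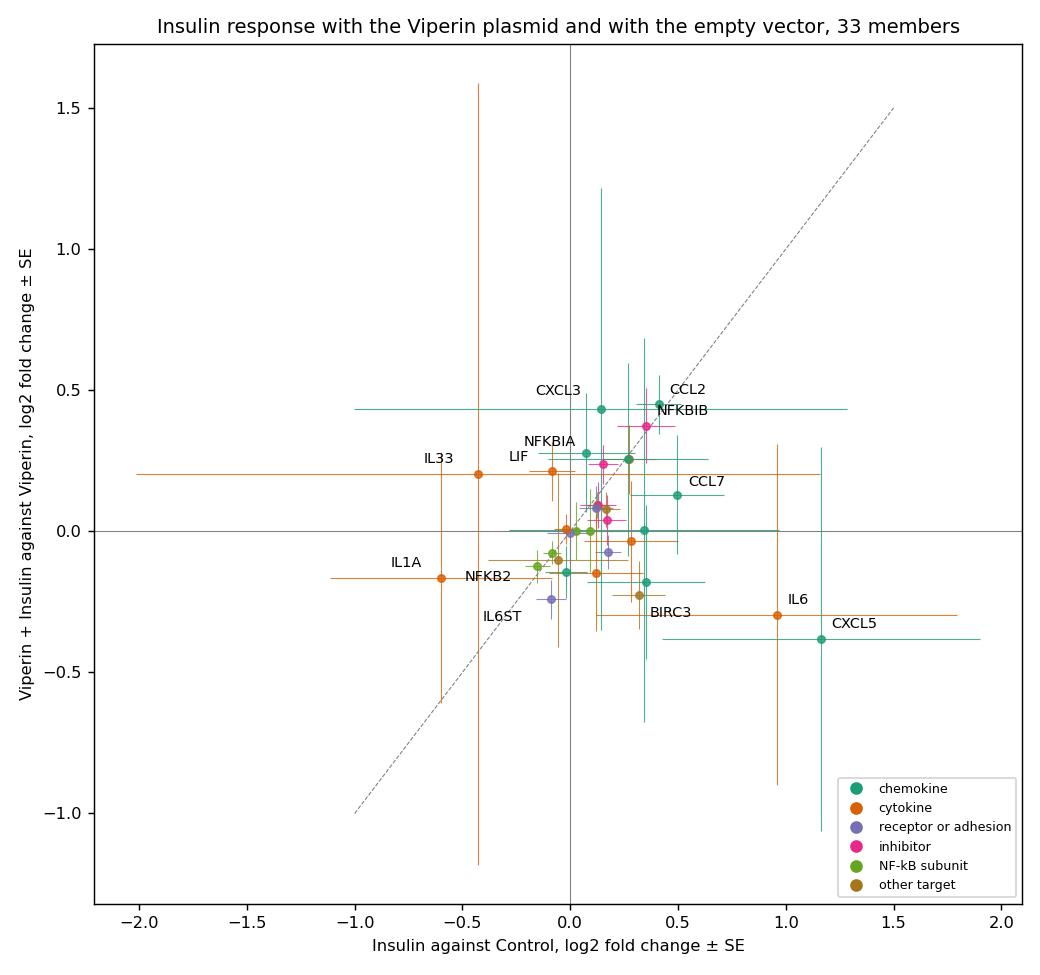
Insulin response of the 33 members with empty vector (x axis, Insulin against Control) and with the Viperin plasmid (y axis, Viperin + Insulin against Viperin), each as log2 fold change ± SE, coloured by role, with a dashed line of equal response; the axes share no library. CCL2, NFKBIB and NFKBIA lie above 0 on both axes, BIRC3 at 0.32 and -0.23 lies right of and below 0, and IL6 and CXCL5 have long error bars.

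CSF1 and TNFRSF11B were not called for insulin or for the Viperin plasmid. CSF1, the macrophage growth factor, had 29.7 to 32.5 CPM with insulin and 30.7 to 32.5 CPM with vehicle, and its log2 values were -0.01 ± 0.04 SE for insulin and -0.01 ± 0.04 SE for the Viperin plasmid. TNFRSF11B had 228, 219 and 237 CPM in Viperin + Insulin libraries and 241, 214 and 233 CPM in Viperin libraries, and 199, 229 and 219 CPM in Insulin libraries and 252, 210 and 186 CPM in Control libraries. Its groups overlapped throughout, with a log2 value of -0.00 ± 0.08 SE for insulin.

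In all, the 95% interval lay within 1.5-fold either way for 25 of 33 members for insulin and for 26 of 33 for the Viperin plasmid. The members outside it for the plasmid were CCL5, CXCL2, CXCL3, CXCL5, IL1A, IL33 and IL6, all at low counts, and CCL7 joined these 7 for insulin. TNFAIP2, a target induced by TNF, had 22.2 to 24.0 CPM with insulin and 19.9 to 23.2 CPM with vehicle (log2 0.12 ± 0.04 SE, adjusted p = 0.0573 by edgeR). The alarmins and cytokines IL1A, IL1B and IL32 had log2 values of -0.38 ± 0.34 SE, 0.12 ± 0.15 SE and -0.01 ± 0.15 SE for insulin, and TRAF1, an adaptor of TNF receptors, had -0.08 ± 0.22 SE. None of these 5 was called in the chosen fit. TNFAIP2 was called for insulin averaged over both plasmids in 3 of 21 other fits (adjusted p = 0.0262 to 0.0429 by edgeR).

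Of 68 further genes of the pathway (receptors and adaptors, kinases, other inhibitors, receptors of the IL-6 and CSF families and other targets), 61 were tested. For insulin averaged over both plasmids 5 of them rose and 3 fell, which is 13.1%, beside the 11.7% of all genes. MAP3K14, which encodes NIK, the kinase that starts processing of p100, rose (log2 0.23 ± 0.04 SE, adjusted p = 7.49e-05 by edgeR). CD44, a hyaluronan receptor, fell (log2 -0.28 ± 0.03 SE, adjusted p = 2.29e-12), and so did JAK1, a kinase bound to gp130 (log2 -0.12 ± 0.03 SE, adjusted p = 0.000301). For the Viperin plasmid 2 of 61 rose and 3 fell (8.20%, beside 7.96% of all genes), among them IRAK1, a kinase of interleukin-1 receptors, which fell (log2 -0.17 ± 0.03 SE, adjusted p = 2.90e-06).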

How the data were processed

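The 12 RNA-seq libraries of 12Z cells were analysed from the counts the authors deposited. Per the submitters' processing notes and the study's methods, reads had been trimmed (Trim Galore, cutadapt), inspected in FastQC and mapped to hg38 with STAR, which also counted them per gene. Of the tool versions, none is given in the sources used here. Deposited values are raw counts, and the reverse-strand column was used, which held 94.1% to 94.3% of stranded assignments. Lines of unmapped, multi-mapped, ambiguous and unassigned reads stayed out of library sizes, and ambiguous and unassigned reads were 7.05% to 7.89% of reads. Symbols for 60357 genes came from GENCODE release 44, and 260 genes had none.

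After TMM scaling, the 23041 genes averaging 1 count or more per library were modelled as 4 group means with edgeR 4.0.16 (robust quasi-likelihood, prior count 2) in R 4.3.3, with Benjamini-Hochberg adjustment over all of them. SE came from the model weights and quasi-likelihood variance, and intervals are 1.96 SE either way. For genes with few counts the fold change is shrunk and the SE is not. The p-values came from the quasi-likelihood F test and not from these intervals, so an interval and its p-value can differ, as for IL6. The intervals are therefore approximate. The fit was tested on simulated data. Members and lists were chosen with earlier results of these data known. Per-library values are given for members called in any comparison and the 3 with the highest level, and the others with values were chosen after these were seen. TPM used summed exon lengths. Alternatives were RLE scaling, other library sizes, DESeq2 1.42.0, limma-voom (limma 3.58.1), other low-count filters, a replicate block, counts without regard to strand, fits of only the groups compared, and libraries left out. RSAD2 was compared by an exact permutation test. Figures used Python 3.11.15 and matplotlib 3.10.9.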

Additional observations from a re-analysis of the deposited data

How the results depend on the processing

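The calls for CCL2, NFKBIA and NFKBIB with insulin averaged over both plasmids were kept under all 12 fits without 1 library and all 9 other alternatives, and no direction of the 10 named results reversed in 213 alternatives, of which 39 lost the call. NFKB1 lost its call without Viperin replicate 2 (adjusted p = 0.0666 by edgeR), and NFKB2 without Insulin replicate 3, Viperin replicate 1 or Viperin + Insulin replicate 3 (up to 0.128). IL11 was also lost with DESeq2 (adjusted p = 0.0608). For Insulin against Control, CCL2 was lost without Control replicate 2 or 3, Insulin replicate 2 or 3, or Viperin replicate 1, and for Viperin + Insulin against Viperin without Viperin replicate 1 or Viperin + Insulin replicate 1 or 3. NFKBIA was lost there in 6 of 12 such fits.

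Counts of members called moved as follows. With 1 library left out they ranged over 0 to 1 for Viperin against Control (1 without Control replicate 1, IL6ST, or 2, CXCL6), 0 to 4 for Insulin against Control (4 without Insulin replicate 1, where CCL7, NFKBIA and VCAM1 joined CCL2), 0 to 3 for Viperin + Insulin against Viperin, 0 to 1 for Viperin + Insulin against Insulin (VCAM1, without Insulin replicate 1 or Viperin + Insulin replicate 3), 0 to 1 for the difference of the insulin responses, 4 to 8 for insulin averaged and 0 to 1 for Viperin averaged. Over the same fits all genes called ranged over 308 to 1102, 627 to 1360, 615 to 1393, 278 to 1039, 0 to 24, 2132 to 2815 and 1289 to 2420, in the same order of comparisons. With Control replicate 1 and Viperin replicate 3 left out together they were 1 for Viperin against Control (IL6ST), 3 for Insulin against Control (BIRC3, CCL2 and ICAM1), 1 for the difference (IL6ST) and 10 for insulin averaged, with 929, 1492, 34 and 2795 of all genes called. Without a filter on low counts they were 2 for Insulin against Control, with 1371 of all genes called. Viperin + Insulin against Insulin had 1 in that fit, with 865 of all genes called. It had 2 (BIRC3 and VCAM1) when only the groups compared were fitted, with 1793 of all genes called, beside 710 in the chosen fit. For Viperin averaged the count was 0 with DESeq2 and 0 with edgeR's own filter, with 1580 and 1946 of all genes called. The cause of these shifts was not tested.

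Same-numbered libraries did not deviate together (18 pairs, correlations of -0.11 to 0.09 over 12556 genes), so the numbers were not taken as pairs. With the replicate number as a block, 0 members were called for Insulin against Control (CCL2, adjusted p = 0.0754) and 1 for Viperin + Insulin against Viperin (NFKBIA, with CCL2 at 0.0566), by edgeR. Of all genes, 1224 and 1012 were called with the block, beside 1265 and 1050 in the chosen fit. Depth limits the 10 members under 1 TPM, of which 3 were not tested and 6 of the other 7 had insulin intervals reaching past 1.5-fold.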
